A study of Mus musculus with 4 samples.

Results

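The cells described here were GABAergic neurons of the mouse BNST (bed nucleus of stria terminalis), chosen by their measured UMIs of Lhx8, Rorb and Pde11a. UMIs, or unique molecular identifiers, count captured RNA molecules. A barcode was kept as a cell where it showed 400 or more genes and mitochondrial genes held no more than 10% of its UMIs. A kept cell counted as a neuron when Snap25, Syt1, Stmn2, Snhg11 and Meg3 together held at least 0.6% of its UMIs, and as GABAergic with at least 1 UMI of Gad1, Gad2 or Slc32a1. A GABAergic neuron was a member when Lhx8, Rorb and Pde11a together had at least 2 UMIs, Tac2 had 0, and Cck, Greb1 and Frem3 together had fewer than 2. This gave 115 members (34, 30, 16 and 35 in libraries 1 to 4) of 2283 GABAergic neurons, among 4239 kept cells of 10200 barcodes. The remaining 2168 GABAergic neurons were the comparison class. The study profiled BNST tissue punches by Drop-seq, a droplet method that captures the 3' ends of each cell's RNA on a barcoded bead. All mice were male, wildtype and of strain C57BL/6J, with 6 mice pooled per batch and 1 library per batch. There was 1 group and no treatment, so every comparison sets cell classes of the same 4 libraries side by side. The labels do not say that the pools held different mice, so p-values speak for these 4 libraries only. Ages of the mice were not given in the sources used here.

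The BNST is a forebrain relay of the extended amygdala, made up largely of GABAergic neurons, that is known for its part in anxiety, arousal and stress responses. Lhx8 encodes a LIM-homeodomain transcription factor of the medial ganglionic eminence, the embryonic zone that also gives rise to basal forebrain cholinergic neurons, in whose development Lhx8 acts together with Isl1. Rorb encodes an orphan nuclear receptor of the retinoid-related family, and Pde11a a phosphodiesterase that breaks down both cAMP and cGMP. Of the further markers named for these neurons, Esrrg encodes an orphan nuclear receptor related to the estrogen receptors and Syt17 a synaptotagmin. The study's title concerns prepronociceptin neurons, and Pnoc, which encodes that nociceptin precursor, was not used to choose the members.

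On mouse build GRCm38, Lhx8 lies on the minus strand of chromosome 3 (154306294 to 154330659), Rorb on the minus strand of chromosome 19 (18930605 to 19111196) and Pde11a on the minus strand of chromosome 2 (75989141 to 76338774). The noncoding gene AI606473 lies on the plus strand of chromosome 3 (154330821 to 154334254), so that it and Lhx8 point away from each other across a stretch of 161 bases that no annotated gene covers. That stretch is shown because AI606473 was the second largest rise in the members. The 100 bases before the RefSeq start sites of Rorb and Pde11a are shown as the other promoter stretches of the genes that chose the members. All 3 come from RefSeq sequence on GRCm38.p6, 5' to 3'.
Lhx8 to AI606473, chr3:154330660-154330820, plus strand: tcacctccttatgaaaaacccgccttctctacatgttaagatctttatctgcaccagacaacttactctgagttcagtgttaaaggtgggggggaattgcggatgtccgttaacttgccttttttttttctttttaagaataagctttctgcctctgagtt
Rorb, chr19:19111197-19111296, minus strand: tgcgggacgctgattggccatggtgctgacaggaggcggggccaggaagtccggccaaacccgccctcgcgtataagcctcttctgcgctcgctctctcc
Pde11a, chr2:76338939-76339038, minus strand: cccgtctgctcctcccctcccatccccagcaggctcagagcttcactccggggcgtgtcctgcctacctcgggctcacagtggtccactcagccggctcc
No letters are in capitals because none of the stretches holds the searched motifs AGGTCA (a nuclear receptor core sequence, reverse TGACCT) or TAATTA (a homeodomain core sequence). In the 250 bases before the start sites, on both strands, AGGTCA occurred in 14.0% and TAATTA in 4.84% of 32851 RefSeq promoter entries. Lhx8, Rorb, Pde11a and Esrrg held neither motif in that window. Of the 12 largest rises described below, 7 had a promoter entry, and Serpinf1 and Gm13629 held 1 AGGTCA match each. A missing match says only that these letters are not in the window.

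The libraries held 5652342, 2762405, 2640399 and 2962880 UMIs, and the members 270286, 186545, 92175 and 155009 of them. The median member had 5529 UMIs and 2744 genes, and the median other GABAergic neuron 3235 and 1909, with 3.61% and 3.64% mitochondrial UMIs. A gate that asks for 2 UMIs favours deep cells, and members were deeper in each library (median 7527, 5150.5, 6984 and 4250 UMIs against 4300, 3569, 2936 and 2482). In all, 11 barcodes were listed in more than 1 library, and no member had such a barcode. No doublet caller was run. A mark for likely doublets (depth in the top 2% of the library, 3 or more UMIs of the markers of 1 non-neuronal type, or at least 1 UMI of Slc17a6 or Slc17a7) fell on 53 members (46.1%) and on 515 other GABAergic neurons (23.8%). Of the microglial markers, 7 of 8 were at 0 in the members. A level is given as CPM, the class's UMIs of a gene in a library scaled by that class's total UMIs there. Summed astrocyte markers spanned 187 to 445 CPM in members, 142 to 248 CPM in other GABAergic neurons and 2010 to 3239 CPM in non-neuronal cells, with Aqp4, Gfap, Agt and Sox9 at 0 in members. Oligodendrocyte markers went the other way, at 159 to 452 CPM against 277 to 1402 CPM, with Mog at 0 in members. Slc17a7, Tbr1, Neurod6 and Neurod2, of the 5 glutamatergic markers, were at 0 in members. The part of depth, doublets and these other cell types in the differences below was not tested.

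The share of GABAergic neurons that were members was 4.72% in library 1 (exact 95% binomial interval 3.29 to 6.53), 6.37% in library 2 (4.34 to 8.97), 3.99% in library 3 (2.30 to 6.40) and 5.07% in library 4 (3.56 to 6.98). The mean was 5.04% ± 0.996 (SD, n = 4 libraries), and every library's interval overlapped those of the other three. Intervals and the limit for a count of 0 cover counting error only. The share depended on the gate itself: 70 of the 115 members had 3 or more gate UMIs, 45 had exactly 2, and 137 further GABAergic neurons that met the same exclusions had exactly 1. Another 26 cells met the gate and were set aside by their Tac2, Cck, Greb1 or Frem3 UMIs.

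Lhx8 chose most of the members. The values of the 5 markers describe the choice of cells and carry no test. Lhx8 was at 263, 279, 315 and 252 CPM in the members of libraries 1 to 4 (277 ± 27.5, SD, n = 4) and at 5.72 to 13.6 CPM in other GABAergic neurons, with a UMI in 86 of 115 members. Rorb was at 137, 166, 108 and 232 CPM (161 ± 53.0) against 3.58 to 10.3 CPM, with a UMI in 49 members. Non-neuronal cells also held Rorb, at 60.2 ± 19.4 CPM, above the other GABAergic neurons, so Rorb alone does not mark these neurons in the tissue. Pde11a varied most, at 133, 59.0, 260 and 406 CPM (215 ± 152) against 10.2 to 21.7 CPM, with a UMI in 60 members. Esrrg and Syt17 were not in the gate but were given as markers from the same cells. Syt17 was even across libraries at 51.8, 80.4, 75.9 and 64.5 CPM (68.2 ± 12.8, 35 cells) against 5.26 to 9.58 CPM. Esrrg was less even, at 25.9, 85.8, 21.7 and 38.7 CPM (43.0 ± 29.4, 19 cells) against 3.59 to 14.3 CPM. All 5 markers were higher in the members than in the other GABAergic neurons of every library, as the label says.

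**Figure D1:**
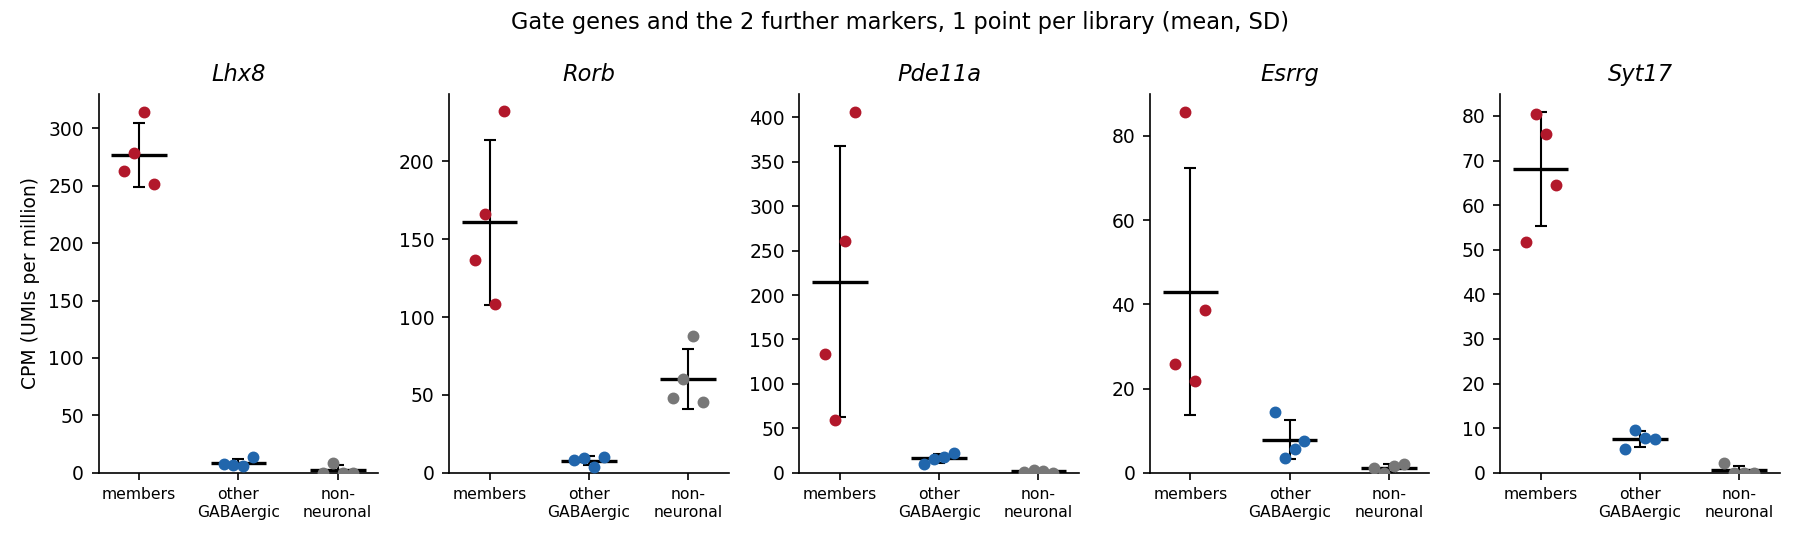
Levels of the 5 marker genes in CPM (y axis) for members, other GABAergic neurons and non-neuronal cells; points are the 4 libraries, bars their mean and error bars the SD. Members sit above other GABAergic neurons for each gene, and Rorb is also seen in non-neuronal cells at 60.2 ± 19.4 CPM.

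Few members carried all the gate genes at once. Lhx8, Rorb and Pde11a were detected together in 18 members (15.7%), Lhx8 with Pde11a in 23, Lhx8 with Rorb in 13 and Rorb with Pde11a in 8. Lhx8 was the only gate gene in 32 members (27.8%), Pde11a in 11 and Rorb in 10. Thus 62 members (53.9%) showed at least 2 gate genes and 53 showed 1. Lhx8-only members came more from library 2 (14 cells) than from library 4 (4 cells), while 8 of the 11 Pde11a-only members came from library 4. Because detection rises with depth, each GABAergic neuron was also thinned to 1000 UMIs. On that scale Rorb was found in 6.74% ± 2.15 of GABAergic neurons with an Lhx8 UMI and in 1.05% ± 0.649 of those without, with no overlap between the libraries (142 and 2141 cells before thinning). Pde11a was found in 9.67% ± 6.51 and 1.96% ± 0.831, and Syt17, which the gate did not use, in 5.88% ± 2.12 and 0.696% ± 0.0697. These shares describe how the genes that led the same cells go together.

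**Figure D2:**
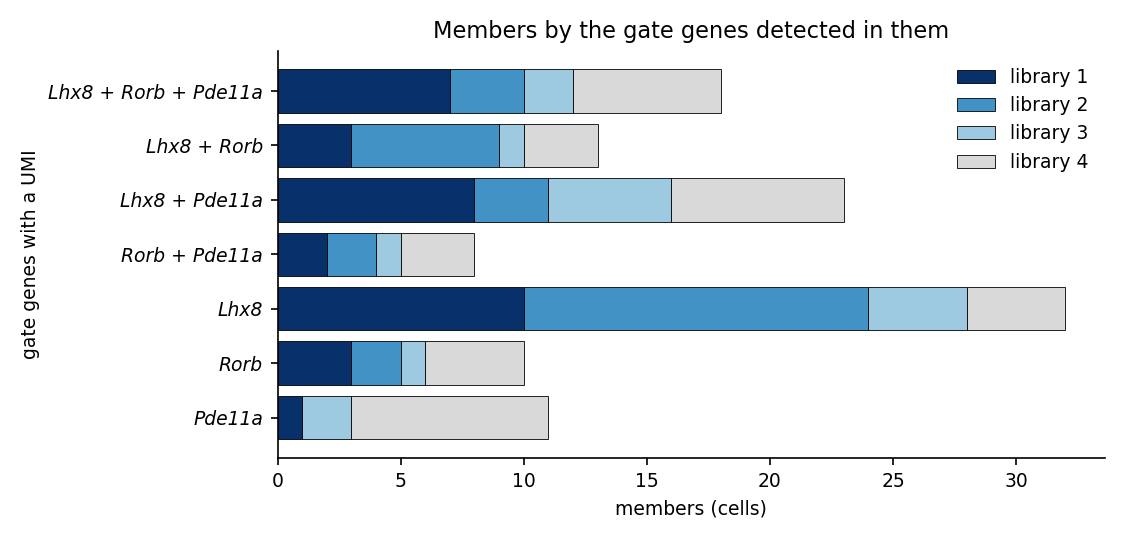
Number of members (x axis) for each combination of Lhx8, Rorb and Pde11a with a UMI (y axis), stacked by library. Cells with all 3 genes number 7, 3, 2 and 6 in libraries 1 to 4, and the Pde11a-only cells lie mainly in library 4.

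Cells on either side of the threshold are described here, and for Lhx8 the gate itself sets the difference. Lhx8 pooled over libraries was at 274 CPM in members with 3 or more gate UMIs, 264 CPM in those with exactly 2, and 70.0 CPM in the 137 neurons with exactly 1. Syt17 went from 63.6 and 69.7 to 17.1 CPM in the same order, and AI606473 from 55.6 and 9.96 to 8.53 CPM. Npy did not follow the gate in steps: it was at 2.0 and 0 CPM inside the threshold and at 1401 CPM just outside it. Sst was at 61.6 and 34.9 CPM inside and 1720 CPM outside, and Isl1 at 207 and 134 CPM inside and 92.1 CPM outside. The 26 set-aside cells held Lhx8 at 148 CPM and Pnoc at 291 CPM, while members with 3 or more and with exactly 2 gate UMIs held Pnoc at 53.7 and 79.7 CPM.

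Outside the gate genes, the members differed from other GABAergic neurons in neuropeptides, developmental transcription factors, receptors and ion channels. Of 8737 genes tested, 960 (11.0%) passed an adjusted p of 0.05, of which 474 (5.43%) were higher and 486 (5.56%) lower in members, and the median log2 fold change over all genes was -0.01. The counts for gene lists below are to be read beside these shares. The share of all genes whose libraries did not overlap is not given here, so remarks on overlap describe single genes. The test was edgeR's quasi-likelihood F-test on UMIs summed per library and class, with library as a block and Benjamini-Hochberg adjustment over all genes. The gate genes had been picked because they led a cluster of these same cells, so the direction of other genes is not independent of that choice. edgeR's p-values set a difference against a spread over libraries that is estimated with help from all genes together. A small p-value therefore does not show that a difference recurred evenly over the 4 pools. Against the Zic1 and Zic4 class described below, Nts passed (edgeR, adjusted p = 0.000105) with members higher in 2 libraries and lower in 2. A level summed over cells cannot tell more cells with a transcript from more transcript per cell. On simulated 2-fold changes the test recovered 25.5% of changed genes, so many genes without a call may still differ. The count of calls was 403 without likely doublets, 310 with members paired to other neurons of like depth and 140 with cells thinned to 1000 UMIs.

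**Figure D3:**
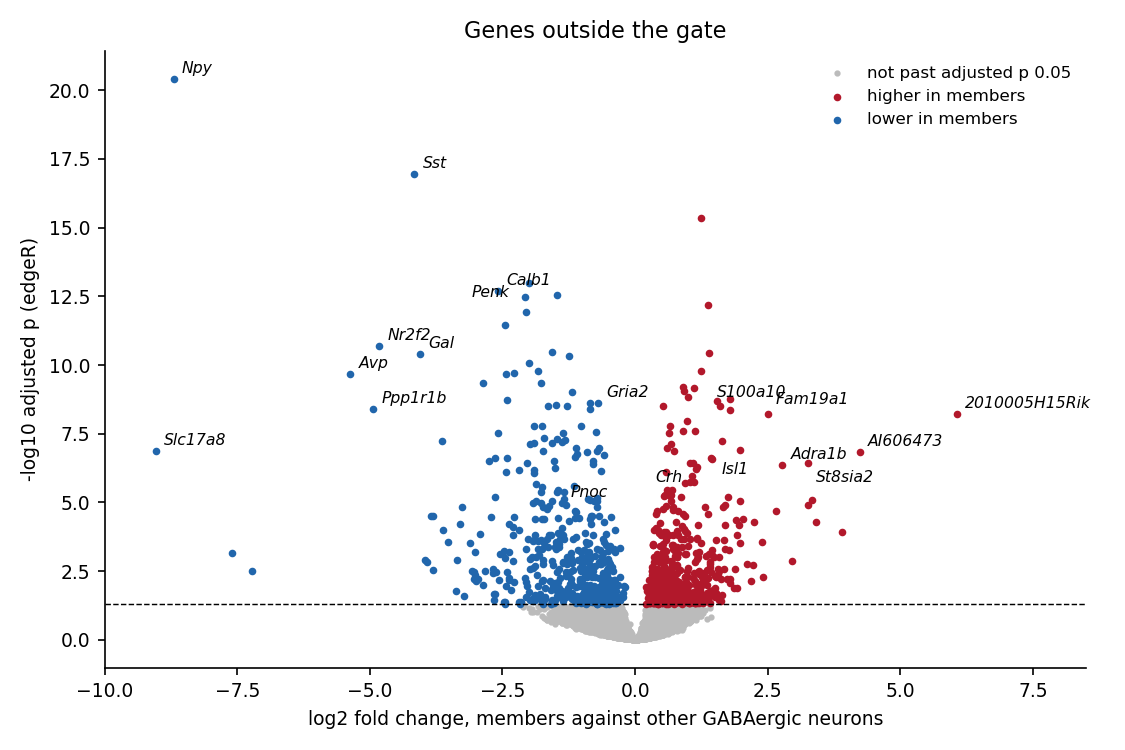
Log2 fold change of members over other GABAergic neurons (x axis) against -log10 of edgeR's adjusted p (y axis), 1 point per gene outside the gate; the dashed line is the adjusted p of 0.05. Calls fall on both sides, 474 higher and 486 lower, with Sst and Npy far to the left and 2010005H15Rik and AI606473 far to the right.

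The largest rises were mostly low-abundance genes that other GABAergic neurons nearly lacked. The low-count filter asks for enough UMIs in 1 class only. Genes as low in other GABAergic neurons as 2010005H15Rik and AI606473 were therefore tested only because members were high. So were Hspb8, St8sia2, Adra1b, Gm13629, Abhd3, Fam101b and Acadl, which stayed below the filter's level in every library of the other class. Their adjusted p-values, lack of overlap and calls kept in other settings describe the rise and are not independent support. 2010005H15Rik was at 37.0, 26.8, 21.7 and 64.5 CPM in members and at 0.585, 0, 0 and 1.09 CPM in other GABAergic neurons (log2 fold change 6.06, SE 0.64, adjusted p = 6.03e-09, from 27 and 4 UMIs). AI606473 was at 44.4, 37.5, 54.2 and 38.7 CPM against 2.05, 4.79, 0.715 and 1.09 CPM (4.23, SE 0.52, adjusted p = 1.44e-07). It showed a UMI in 25 of 86 members with Lhx8 (29.1%, interval 19.8 to 39.9) and in 3 of 29 members without (10.3%, 2.19 to 27.4). Among other GABAergic neurons it showed a UMI in 4 of 56 cells with Lhx8 (7.14%) and in 12 of 2112 without (0.568%), at median depths of 3884.5 and 3216.5 UMIs. The divergent neighbour of Lhx8 was thus found in a larger share of cells with an Lhx8 UMI in both classes. Of the other GABAergic neurons that held it, more lacked an Lhx8 UMI (12) than had one (4). Members with Lhx8 were also deeper (median 5797 against 4714 UMIs). The use of Lhx8 in the gate makes these shares a description rather than independent support.

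Adra1b, the alpha-1B adrenergic receptor, was at 77.7, 91.1, 54.2 and 32.3 CPM in members against 8.38 to 11.4 CPM, without overlap (log2 fold change 2.77, SE 0.36, adjusted p = 4.30e-07). St8sia2, an enzyme that adds polysialic acid to neural cell adhesion molecules, was at 44.4, 64.3, 32.5 and 64.5 CPM against 2.63 to 9.30 CPM (3.26, SE 0.42). Fam19a1, a secreted chemokine-like protein, was at 111, 188, 65.1 and 71.0 CPM against 14.3 to 25.8 CPM (2.50, SE 0.27, adjusted p = 6.03e-09). In each of these genes the lowest member library stood above the highest library of the other class. The small heat-shock protein gene Hspb8 (log2 fold change 3.33), the secreted serpin gene Serpinf1 (3.26), the lipid hydrolase gene Abhd3 (2.39), Fam101b (2.25), the fatty-acid oxidation gene Acadl (2.11) and Mmgt2 (2.03) also rose in 4 of 4 libraries. Gm13629 (2.66) rose as well, and it overlaps Scn9a on the opposite strand. Because the counting strand is not given in the sources used here, Fam19a1 and Gm13629, which overlap listed genes on the opposite strand, are uncertain. All 12 largest rises kept their call when any 1 library was left out. For the genes tested only because members were high, this is a description and not independent support.

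The largest falls were genes that the members nearly lacked. Through the same filter, genes with 0 UMIs in members were tested only because the other class was high. Slc17a8, the vesicular glutamate transporter VGLUT3, had 0 UMIs in members and 27.5, 67.1, 94.4 and 78.8 CPM in other GABAergic neurons, which with a limit of 3 counts over all members is at least 13.6-fold lower. Npy, neuropeptide Y, had 1 UMI in members and 5413 in other GABAergic neurons (727, 367, 321 and 1013 CPM), a ratio of 457 with a counting interval of 82.1 to 18072. With 1 gate UMI in place of 2, the log2 fold change of Npy was 0.26 and that of Sst -0.06, neither past the threshold. The calls of Avp (-0.56), Pou3f4 (-0.90), Tnnt2 (-1.17) and Wdr66 (-0.84) ended with that gate as well. The Wnt modulator gene Dkk3 and the POU-domain factor gene Pou3f4 also had 0 UMIs, at least 5.04-fold and 3.83-fold lower. Avp, the vasopressin gene, had 2 UMIs in members (ratio 40.5, interval 11.2 to 335.1), as did Ppp1r1b, which encodes the striatal phosphoprotein DARPP-32 (32.5, 8.95 to 268.5), and Chrm1, the M1 muscarinic receptor (15.1, 4.16 to 125.4). Tnnt2 and Wdr66 had 1 UMI each (17.2, 3.04 to 680.9, and 16.4, 2.91 to 650.9). Ppp1r1b, Chrm1 and Wdr66 overlap listed genes on the opposite strand and are uncertain.

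The neuropeptide genes moved mostly downward, with Crh as the main exception. Of 13 tested, 2 rose, 8 fell and 3 were not called, with a median log2 fold change of -1.38. Over all 8737 genes 5.43% were higher and 5.56% lower, and the lists that follow have the same background. Sst, the somatostatin gene, was at 111, 21.4, 0 and 25.8 CPM in members and 1002, 446, 400 and 1889 CPM in other GABAergic neurons (-4.16, SE 0.21, adjusted p = 1.14e-17). Gal, the galanin gene, was at 25.9, 0, 43.4 and 0 CPM against 260, 532, 86.5 and 73.3 CPM (-4.06, SE 0.35). Penk, the proenkephalin gene, was at 211, 107, 54.2 and 271 CPM against 601, 768, 614 and 983 CPM (-2.07, SE 0.15, adjusted p = 3.28e-13). No library of the members reached the other class for Sst, Gal or Penk, and Penk overlaps a listed gene on the opposite strand. Nts, the neurotensin gene, fell by 1.72 on the log2 scale but was higher in members in library 3. The call of Nts ended with DESeq2 (adjusted p = 0.280), without the block (0.0591) and with a gate of 1 UMI (-0.51), and that of Gal with DESeq2 (adjusted p = 0.0517). Tac1 fell by 0.65 (adjusted p = 0.0371), with 109 of its 149 UMIs in 1 cell, and its call ended without library 2 (-0.60), 3 (-0.43) or 4 (-0.45).

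Crh, the corticotropin-releasing hormone gene, was at 466, 466, 336 and 781 CPM in members and 202, 251, 337 and 231 CPM in other GABAergic neurons. From 365 UMIs in 48 members, edgeR gave a log2 fold change of 1.09 (SE 0.14, adjusted p = 3.70e-07). Members were higher in 3 of 4 libraries and level with the other class in library 3. When members were paired with other neurons of like depth the fold change was 0.73 and the call ended (adjusted p = 0.0547). Vgf, a neuropeptide precursor gene, rose by 0.86 (SE 0.16, adjusted p = 0.000209), with 55 of its 216 UMIs in 1 cell, and its call ended without library 4 (0.44), without likely doublets (0.23, adjusted p = 0.736), without the library block and after thinning.

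Pnoc, the gene the study concerned, was lower in the members. It was at 66.6, 69.7, 10.8 and 71.0 CPM in members and 174, 160, 137 and 144 CPM in other GABAergic neurons (54.5 ± 29.2 and 154 ± 16.7 CPM, SD, n = 4). Library 3 of the members, with 1 Pnoc UMI, stood far below the other three, and all 4 member libraries lay below all 4 of the other class. On the log2(CPM + 1) scale the difference was -1.78 ± 1.19, and members were lower in all 4 (two-sided exact permutation of signs, p = 0.13, the smallest this number of libraries allows). edgeR gave -1.38 (SE 0.21, adjusted p = 1.09e-05). At 1000 UMIs per cell 4.75% ± 2.93 of members and 9.86% ± 1.18 of other GABAergic neurons held a Pnoc UMI (difference -5.11 ± 2.61 percentage points, exact permutation p = 0.13). The gate removes Cck and Tac2 cells from the members only. With the same exclusions in both classes edgeR's fold change was -0.94 (adjusted p = 0.0030), and with 1 gate UMI it was -0.44 and missed the threshold (adjusted p = 0.055). Thinned counts gave -1.26 (adjusted p = 0.28). Oprl1, the nociceptin receptor gene, was at 48.1, 64.3, 32.5 and 45.2 CPM against 51.4, 61.1, 61.5 and 77.7 CPM and was not called (-0.30, SE 0.26, adjusted p = 0.563).

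**Figure D4:**
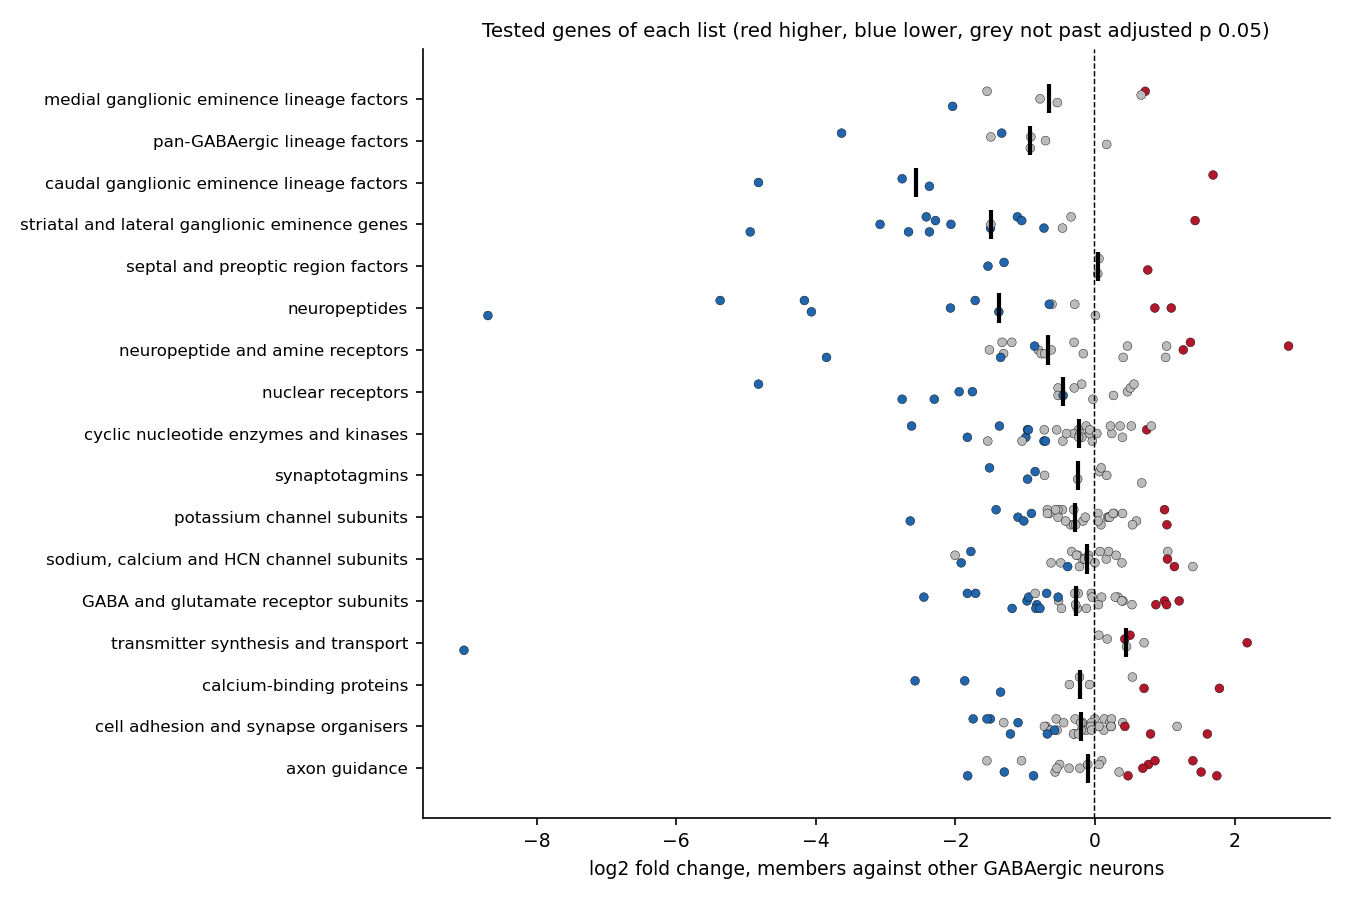
Log2 fold change of members over other GABAergic neurons (x axis) for the tested genes of 17 lists (rows), 1 point per gene; the black bar is the list's median and the dashed line the median of all genes (-0.01). Striatal genes (median -1.50) and neuropeptides (-1.38) lie mostly left of the line, and axon guidance genes (-0.10) on both sides.

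Transcription factors of the embryonic zones divided the members from other GABAergic neurons more by losses than by gains. Of 4 tested genes of the caudal ganglionic eminence list 3 fell and 1 rose (median -2.57). Nr2f2, encoding the nuclear receptor COUP-TFII, was at 0, 5.36, 32.5 and 0 CPM in members and 175, 133, 217 and 156 CPM in the other class (-4.82, SE 0.40, adjusted p = 2.03e-11). Its relative Nr2f1 fell by 2.76, and Prox1 fell by 2.37 with a call that ended without library 1 (-1.60). Nr2f1 and Nr2f2 overlap listed genes on the opposite strand. Adarb2, an RNA-editing family gene of the same list, went the other way, at 62.9, 59.0, 152 and 38.7 CPM against 16.3 to 37.9 CPM (1.69, SE 0.29, adjusted p = 6.52e-05).

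Of 15 tested striatal and lateral ganglionic eminence genes 11 fell, 1 rose and 3 were not called (median -1.50). Against the narrower classes described below most of these falls were not seen or not tested. Of 4 genes tested against the Cck and Greb1 class 2 rose and 0 fell (median 1.09). Of 5 tested against the Zic1 and Zic4 class 1 rose and 1 fell (median -0.65). The shares over all genes are given with those classes. Meis2, a homeodomain factor of that lineage, was at 81.4, 91.1, 75.9 and 187 CPM against 367, 504, 471 and 506 CPM, without overlap (-2.06, SE 0.15, adjusted p = 1.20e-12). Foxp2 fell by 2.37, Foxp1 by 1.50 and Bcl11b by 1.11, all transcription factors of striatal projection neurons. The dopamine D1 receptor gene, listed as Drd1a, fell by 2.29. Ebf1 had 2 UMIs in members (ratio 8.87, interval 2.43 to 73.75) and Zfp503 had 3 (6.70, 2.27 to 32.7). Six3 fell by 1.05, and that call ended without library 1 (-0.73) or 4 (-0.76). The one riser was Isl1, a LIM-homeodomain factor of striatal and of cholinergic neurons. It was at 192, 139, 250 and 194 CPM in members against 55.4 to 81.5 CPM, without overlap and with a UMI in 53 members (1.44, SE 0.18, adjusted p = 2.36e-07). With thinned counts its fold change was 0.74 and the call ended.

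Medial ganglionic eminence factors other than Lhx8 did not move together: of 6 tested, 1 rose, 1 fell and 4 were not called (median -0.66). Lhx6 was at 59.2, 129, 21.7 and 51.6 CPM against 34.2, 40.1, 57.9 and 56.5 CPM and was not called (0.66, adjusted p = 0.159), although it was called without library 3 (0.90). Nkx2-1, the factor that specifies this zone, had 8 UMIs in 6 members and was not called (-0.54, adjusted p = 0.692). Satb1 fell by 2.04 and its call ended without library 1 (-1.82) or 2 (-1.64). Of 7 pan-GABAergic lineage genes 2 fell, none rose and 5 were not called (median -0.93). Dlx1, a homeodomain factor of GABAergic precursors, was at 66.6, 64.3, 43.4 and 51.6 CPM against 133 to 161 CPM (-1.34, SE 0.20). The noncoding Sox2ot fell by 3.63 and overlaps a listed gene on the opposite strand. The gate's own GABA genes were near even in both classes, Gad1 at 605 ± 132 and 665 ± 72.0 CPM, Gad2 at 2213 ± 287 and 2112 ± 197 CPM, and Slc32a1 at 475 ± 97.0 and 465 ± 42.3 CPM. In the septal and preoptic list the LIM-only factor genes Lmo4 and Lmo3 fell by 1.53 and 1.30. Zic1 rose by 0.76, and its call ended in 10 of 20 other settings, among them without library 1 (0.50) or 4 (0.84), with the same exclusions in both classes (0.51) and with a gate of 3 UMIs (0.40).

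Members with and without an Lhx8 UMI could be set side by side only as pooled values, since 3 libraries held fewer than 10 members without Lhx8. The 86 members with Lhx8 held Isl1 at 210 CPM and the 29 without at 103 CPM. Adarb2 was at 85.7 and 6.4 CPM. In the other direction Meis2 was at 67.4 and 245 CPM, Penk at 94.8 and 463 CPM, and Nts at 36.5 and 328 CPM. Nr2f2 had no UMI in the members with Lhx8 and stood at 25.7 CPM in the others. These pooled values mix the libraries in different shares, since 28, 26, 12 and 20 members with Lhx8 but 6, 4, 4 and 15 without came from libraries 1 to 4. In library 4 alone, members with and without Lhx8 held Isl1 at 250 and 127 CPM, Adarb2 at 71.4 and 0 CPM, Meis2 at 11.9 and 395 CPM, Penk at 167 and 395 CPM and Nts at 23.8 and 409 CPM, and neither held Nr2f2. No test was possible. Crh was at 549, 491, 418 and 833 CPM in members with Lhx8, above the 255 ± 57.9 CPM of other GABAergic neurons. In members without, it was at 45.2, 230, 87.6 and 719 CPM, so that only library 4 stood above that level.

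A few members carried cholinergic transcripts. Chat, which encodes the acetylcholine-synthesising enzyme, or Slc5a7, the choline transporter gene, had a UMI in 5 members (4.35%) and in 28 other GABAergic neurons (1.29%). Of the 5 cells, 2 came from library 1 and 3 from library 3, and 3 held both genes. They held all 10 Chat UMIs, all 44 Slc5a7 UMIs and 11 of the 12 UMIs of Ngfr found in members. Each had at least 1 UMI of Lhx8 and of Isl1, and none had a UMI of Crh, Gbx1 or Gbx2. Gbx2, a homeobox gene of developing forebrain, was found in 8 other members (11 UMIs, 15.6 CPM pooled against 1.92 CPM). Gbx1 was found in 5 (7.10 against 0.840 CPM). These genes were too rare for the low-count filter and had no test. Chat and Gbx2 overlap listed genes on the opposite strand. Without cells that held Chat or Slc5a7, in both classes, a setting chosen after seeing the data, 976 genes were called in place of 960.

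Receptor and channel genes moved in both directions. Of 32 tested GABA and glutamate receptor subunits 4 rose, 11 fell and 17 were not called (median -0.27). Over all 8737 tested genes the shares were 5.43% higher and 5.56% lower. Gabra4, the alpha4 subunit of the GABA-A receptor, was at 33.3, 21.4, 0 and 19.4 CPM against 58.7 to 87.7 CPM (-1.71, SE 0.33, adjusted p = 0.000293). Gabra4 overlaps a listed gene on the opposite strand. Gabrb2 rose by 0.87, a call that ended without library 1 (0.84), 2 (0.85) or 4 (0.84).

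The AMPA receptor subunit genes Gria1 and Gria2 fell. Gria1 was at 163, 204, 293 and 271 CPM against 402, 414, 722 and 599 CPM (-1.19, SE 0.12, adjusted p = 9.32e-10). Gria2, a far-spread neuronal transcript found in 110 of 115 members, was at 955, 1051, 1172 and 1219 CPM against 1585, 1667, 2013 and 1884 CPM (-0.69, SE 0.07, adjusted p = 2.43e-09). Member libraries lay below all other libraries for both genes. Kainate receptor genes diverged: Grik1 fell by 1.83, and Grik3 rose by 1.21 with a call that ended without library 4 (0.88). Of the metabotropic receptor genes, Grm5 fell by 0.79 and Grm8 by 2.45, the last with a call that ended without library 1 (-1.90).

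Of 20 neuropeptide and amine receptor genes 3 rose, 3 fell and 14 were not called (median -0.67). Chrm2, the M2 muscarinic receptor, was at 115, 96.5, 108 and 135 CPM against 35.3 to 49.7 CPM (1.37, SE 0.22, adjusted p = 2.61e-05), opposite to the nearly absent Chrm1. Both muscarinic genes overlap listed genes on the opposite strand. The serotonin receptor genes also differed in direction. Htr2c fell by 1.35 (SE 0.30), and Htr1a rose by 1.27 (adjusted p = 0.0408) with a call that ended without library 1 (1.39), 2 (1.31), 3 (1.16) or 4 (1.22). Prlr, the prolactin receptor, fell by 0.87. Of 15 tested nuclear receptor genes 6 fell, none rose and 9 were not called (median -0.45), Rorb and Esrrg apart. Nr3c1, the glucocorticoid receptor, was at 55.5, 80.4, 32.5 and 58.1 CPM against 186 to 215 CPM (-1.76, SE 0.19, adjusted p = 1.63e-08). The retinoid X receptor gene Rxrg fell by 1.95 and the thyroid hormone receptor genes Thrb and Thra by 2.30 and 0.45. Thra overlaps a listed gene on the opposite strand.

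Of 24 sodium, calcium and HCN channel genes 2 rose, 3 fell and 19 were not called (median -0.12). Scn1a, encoding the sodium channel Nav1.1, was at 318, 236, 336 and 381 CPM against 131 to 213 CPM (1.04, SE 0.13, adjusted p = 3.80e-07). Scn2a1, the Nav1.2 gene, fell by 0.39, a call that ended without library 1 (-0.34). The calcium channel alpha2delta subunit genes split. Cacna2d2 was at 289, 391, 336 and 303 CPM against 142 to 159 CPM (1.14, SE 0.13, adjusted p = 2.45e-08), while Cacna2d1 fell by 1.92 and Cacna2d3 by 1.78. Of 32 potassium channel genes 2 rose, 5 fell and 25 were not called (median -0.29). Kcnip4, an accessory protein of A-type channels, was at 229, 268, 260 and 252 CPM against 102 to 141 CPM (1.03, SE 0.14). The A-type channel gene Kcnd2 itself fell by 0.91, the accessory subunit gene Kcnab1 by 2.65 and the Kv1.1 gene Kcna1 by 1.42. Kcnc4 rose by 1.00 with a call that ended without any 1 library (1.08, 1.01, 0.85 and 1.08 without libraries 1 to 4). Scn1a, Kcnip4, Kcnab1 and Cacna2d3 overlap listed genes on the opposite strand.

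Around Pde11a, most calls among the other cyclic nucleotide genes were falls. Of 32 tested 1 rose, 8 fell and 23 were not called (median -0.23). Pde1a was at 92.5, 123, 260 and 148 CPM against 338 to 387 CPM (-1.37, SE 0.16, adjusted p = 6.38e-08). Pde2a fell by 1.83, Pde4b by 0.97 and Pde10a by 0.73, the last with a call that ended without library 1 (-0.57), 3 (-0.68) or 4 (-0.70). Pde7b had 3 UMIs in members (ratio 6.54, interval 2.21 to 31.9). Prkacb, a catalytic subunit of the cAMP-dependent kinase, was at 518, 525, 608 and 613 CPM against 851 to 1063 CPM (-0.71, SE 0.09, adjusted p = 1.35e-07). Adcy2, an adenylate cyclase, was the one gene that rose (0.74, adjusted p = 0.0494), and its call ended without library 1 (0.82), 2 (0.54), 3 (0.76) or 4 (0.82). Beside Syt17, 9 synaptotagmins were tested, of which 3 fell and none rose (median -0.25), among them Syt10 by 1.51 and Syt5 by 0.86.

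In the list of calcium-binding proteins and members of their families, which counts S100a10 by its S100 family, 2 rose, 3 fell and 4 of 9 were not called (median -0.22). Calb1, calbindin, was at 44.4, 69.7, 86.8 and 58.1 CPM against 318 to 410 CPM (-2.58, SE 0.18, adjusted p = 2.00e-13). S100a10, which binds annexin A2, was at 192, 188, 141 and 161 CPM against 28.6 to 66.1 CPM (1.78, SE 0.19, adjusted p = 4.19e-09). Neither gene's groups overlapped. Hpcal1 and Hpcal4, a pair of neuronal calcium sensors of the same family, went apart: Hpcal1 rose by 0.70 (SE 0.10) and Hpcal4 fell by 1.35 (SE 0.15). Necab1 fell by 1.87. With thinned counts S100a10 kept its direction (1.45) and missed the threshold (adjusted p = 0.095).

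Axon guidance was the one list with more rises than falls among those with over 10 tested genes: of 21, 7 rose, 3 fell and 11 were not called, yet the median was -0.10. Among all tested genes 5.43% were higher and 5.56% lower. Sema3a, a secreted repellent, was at 70.3, 102, 119 and 83.9 CPM against at most 34.1 CPM (1.75, SE 0.26, adjusted p = 6.26e-06). Slit2, another secreted repellent, was at 77.7, 48.2, 119 and 64.5 CPM against 17.8 to 42.9 CPM (1.52, SE 0.29). Both genes were higher in 4 of 4 libraries without overlap, and Slit2 overlaps a listed gene on the opposite strand. The netrin receptor gene Unc5d rose by 0.86, the semaphorin receptor gene Nrp1 by 0.69 and Sema3c by 1.40. The call of Nrp1 ended without library 1 (0.56) and that of Sema3c without library 2 (0.56). Nrp2, the other neuropilin gene, fell by 1.30, a call that ended without library 4 (-1.13), and the ephrin receptor gene Epha5 fell by 0.88. Of 39 adhesion and synapse organiser genes 3 rose, 7 fell and 29 were not called (median -0.20). Nxph1, a neurexin ligand, was at 107, 139, 108 and 123 CPM against 56.7 to 82.1 CPM (0.80, SE 0.19). The cadherin gene Cdh12 rose by 1.61, a call that ended without library 4 (1.28).

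Of 8 genes of transmitter synthesis and transport 3 rose, 1 fell (Slc17a8) and 4 were not called (median 0.44). Th, the tyrosine hydroxylase gene, was at 7.40, 37.5, 184 and 12.9 CPM against 8.48, 14.4, 2.86 and 8.69 CPM and rose (adjusted p = 0.00739), with 17 of its 28 UMIs in library 3, and the call ended without that library (log2 fold change 0.77). The GABA transaminase gene Abat rose by 0.50, a call that ended without library 2 (0.51), 3 (0.42) or 4 (0.34). Of 6 immediate early genes 2 fell and none rose (median -0.77), and their summed level was 203 to 652 CPM in members and 369 to 867 CPM in the other class. Of the glial markers, Mbp fell by 0.97 and Aldoc rose by 0.56.

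Of the 101 genes named with a call against all other GABAergic neurons, 39 kept it in every one of 20 other settings that could test them, and 18 of these could be tested in all. Among the 39 were AI606473, Adra1b, Fam19a1, Nr2f2, Penk, Meis2, Adarb2, Calb1, Gria2, Scn1a, Cacna2d2, Sema3a, Slit2, Pde1a and Prkacb. These settings concern the comparison with all other GABAergic neurons only. Against the narrower classes described below, Penk and Meis2 were not called, and Cacna2d2 was called only against the Cck and Greb1 class. DESeq2 ended 20 of 96 calls: Abat, Adcy2, Drd1a, Gabrb2, Gal, Grik3, Htr1a, Kcnc4, Nts, Pde10a, Pde7b, Prox1, Satb1, Scn2a1, Sema3c, Six3, Tac1, Th, Zfp503 and Zic1. Leaving out likely doublets ended 26 of 83, among them those of Chrm2, Gabra4, Htr2c, Unc5d, Bcl11b, Pde4b, Mbp, Nxph1, Nrp1, Nrp2, Prlr, Thra, Drd1a and Vgf. The gate of 1 UMI ended 22 of 100, among them Cacna2d3, Pde2a, Syt10, Mbp and Aldoc. Without the library block 21 of 101 ended, among them Htr2c, Unc5d, Nxph1, Thra, Mbp and Aldoc. Pairing on depth ended 16 of 54, with Bcl11b, Htr2c, Kcnd2, Pde4b and Crh among them. Thinning ended 40 of 66, including Gria1, Nr3c1, Chrm2, Nr2f1, Foxp1 and Foxp2. Beside the genes already given as uncertain, Cdh12, Grm8, Lmo3, Necab1, Pde10a, Six3, Slc32a1 and Zic1 also overlap listed genes on the opposite strand.

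The members were also set against a pair of narrower GABAergic classes that hold more Pnoc. The first had at least 2 UMIs of Cck, Greb1 and Frem3 (167 cells), and the second had at least 2 UMIs of Zic1 and Zic4 (125 cells), both with fewer than 2 gate UMIs and no Tac2. In the second class Cck, Greb1 and Frem3 together also had fewer than 2 UMIs. Both comparisons use the same member sums, so they are not independent of each other or of the one above. Lhx8 had no UMI in the Cck and Greb1 class and was at 22.9 ± 14.6 CPM in the Zic1 and Zic4 class. Against the Cck and Greb1 class 540 of 3830 genes passed (14.1%), 252 higher (6.58%) and 288 lower (7.52%) in members. Against the Zic1 and Zic4 class 260 of 3438 passed (7.56%), 111 higher (3.23%) and 149 lower (4.33%).

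Crh gave the largest rise in both comparisons. It was at 466, 466, 336 and 781 CPM in members, 2.30, 14.0, 51.7 and 74.5 CPM in the Cck and Greb1 class (log2 fold change 4.03, SE 0.29, adjusted p = 4.98e-12) and 0, 15.5, 0 and 92.6 CPM in the Zic1 and Zic4 class (4.19, SE 0.26, adjusted p = 1.65e-45). No library of either class reached any member library. Pnoc was at 295, 405, 397 and 468 CPM in the Cck and Greb1 class and 267, 155, 206 and 135 CPM in the Zic1 and Zic4 class, all above the members (-2.65, SE 0.22, adjusted p = 2.02e-10, and -1.71, SE 0.28, adjusted p = 1.03e-07). Both classes were taken up as classes known to hold more Pnoc, so the direction was known beforehand. These Pnoc values describe that choice and are not independent support. Calb1 was lower in members in both (-3.36 and -2.35), as was the noncoding Sox2ot (-3.66 and -3.33). Isl1 and S100a10 were higher in both, Isl1 by 2.94 and 1.87 and S100a10 by 2.17 and 1.25.

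The other genes named for the size of their change are given for each class in turn, and the difference between these contrasts was not tested. Nr2f2 was at 368, 287, 531 and 596 CPM in the Cck and Greb1 class (-6.06, SE 0.36, adjusted p = 8.66e-14), and Npy (-5.70), Tmem215 (-3.83) and Gal (-3.62) were also lower in members. Sema3a (3.98), Fam19a1 (3.63), the metallophosphoesterase gene Mpped2 (3.48) and the zinc-finger homeobox gene Zfhx4 (3.23) were higher. Against the Zic1 and Zic4 class the largest rises after Crh were Rprm (2.11), Rcn1 (1.96), Isl1 and Sema3a (1.81), the last with a call that ended without library 4 (1.55). The largest falls after Sox2ot were Nfib (-3.18), Sst and Dgkg (both -2.59) and Crim1 (-2.35). Nfib (-3.11), Crim1 (-3.50) and Dgkg (-1.73) were also lower than in the Cck and Greb1 class, as were Rprm and Rcn1 (adjusted p = 5.66e-06 and 0.00461). Nfib, Dgkg, Crim1 and Zfhx4 overlap listed genes on the opposite strand. Penk, lower than in all other GABAergic neurons, was not called against either class (0.35, adjusted p = 0.384, and 0.19, adjusted p = 0.793). Meis2, also lower there, was not called against either (0.10, adjusted p = 0.884, and -0.70, adjusted p = 0.0825). Bcl11b, lower there too, was higher than in the Cck and Greb1 class (2.08, adjusted p = 0.00155) and not called against the other (0.32). Cacna2d2 was higher than in the Cck and Greb1 class (2.43) but not called against the other (0.28, adjusted p = 0.416).

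**Figure D5:**
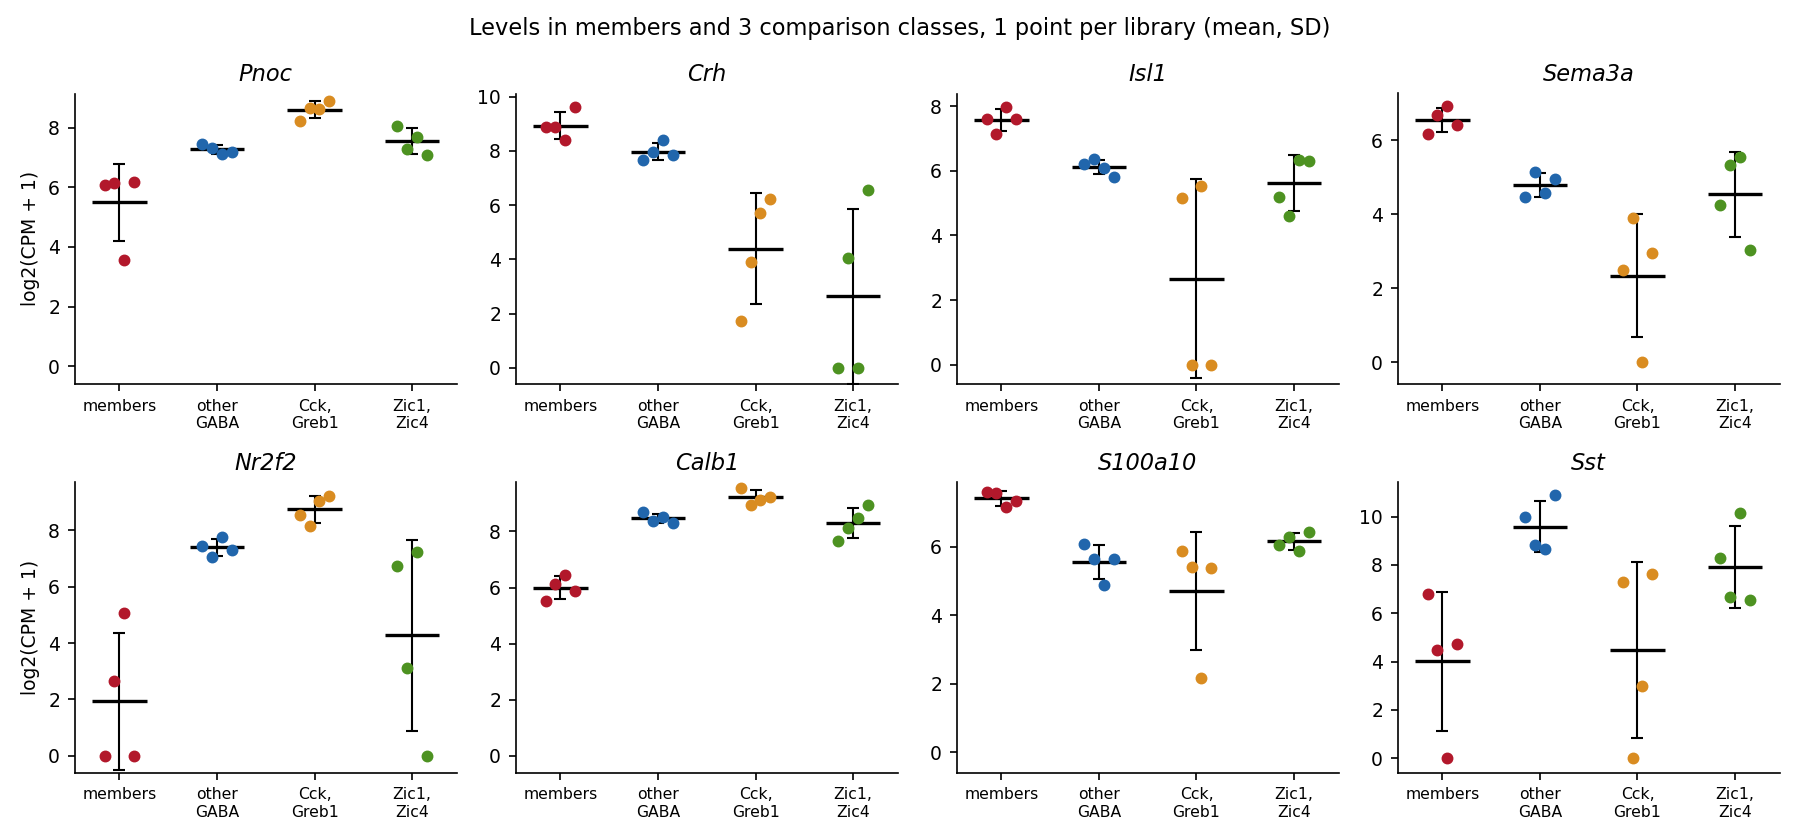
Log2(CPM + 1) (y axis) of 8 genes in members, other GABAergic neurons, the Cck and Greb1 class and the Zic1 and Zic4 class; points are the 4 libraries. Crh is highest and Pnoc and Calb1 lowest in the members, with the Cck and Greb1 class at the top for Pnoc (391 ± 71.6 CPM).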

How the data were processed

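The deposited tables hold raw UMI counts per gene and barcode. Per the submitters' processing notes, bcl2fastq 2.18.0.12, STAR 2.4.2a, Picard 2.2.4 and mm10 (GRCm38) were used, with no role stated; annotation, counting strand and barcode choice are not given in the sources used here. Gene positions come from GENCODE vM21, in which 18830 of 20136 names (93.5%) were found. Members, gate, marker lists and the lists below were chosen with earlier results of these data known. The main test, edgeR 4.0.16 under R 4.3.3, compared UMI sums of each class and library (filterByExpr, TMM, quasi-likelihood F-test, Benjamini-Hochberg). Library was a block, since each library's sums share 1 pool of mice; the labels do not say that the pools held different mice. Standard errors divide the absolute log2 fold change by the root of F. The 15 gate genes, Esrrg and Syt17 got no test, nor did Zic1 and Zic4 against their class. Tested on simulated data with 200 genes changed 2-fold, edgeR recovered 25.5% among 8752 genes (5.56% wrong calls), 40.5% among 3843 for the Cck and Greb1 class and 46.5% among 3450 for the Zic1 and Zic4 class.

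Named genes are the gate genes, Pnoc, Oprl1, Chat, Slc5a7, the 12 largest rises and falls with the same direction in 4 libraries and at least 20 UMIs in the higher class (5 each way for the narrower classes), and genes of the lists past the threshold; list genes with weaker calls are in the counts only, and some genes are not reported here. The lists cover lineage factors of the medial, caudal and lateral ganglionic eminence, pan-GABAergic, cholinergic, septal and preoptic genes, neuropeptides, receptors, nuclear receptors, cyclic nucleotide enzymes, synaptotagmins, channels, transmitter genes, calcium-binding proteins, adhesion, axon guidance, immediate early genes and markers of other cell types. Single values used an exact sign-flip permutation test over 4 libraries. Levels took a pseudocount of 1 before log2; intervals are exact at 95%, and a count of 0 was set to a limit of 3 counts over the class. Other tools were DESeq2 1.42.0, matplotlib 3.10.9, scipy 1.17.1, numpy 2.4.6, Python 3.11.15 and pandas 2.3.3.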

Additional observations from a re-analysis of the deposited data

Results flagged for a closer look

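The log2 differences between members and other GABAergic neurons were searched, gene by gene, for 1 library standing apart from the other three. The rule was a gap above Dixon's 95% critical value for 4 values. The member share, the share of members with a Pnoc UMI and the median UMIs per member were searched as well. Of 148 sets of values searched 9 stood apart, all of them genes, where chance alone gives about 1 in 20, or 7.4. Library 4 stood apart for Ppp1r1b (-3.38, others -6.50 to -6.05) and Htr2c (-6.46, others -1.51 to -0.76). Library 3 stood apart for Pnoc (-3.54, others -1.38 to -1.01), Gabra4 (-6.30, others -1.76 to -1.37), Gabrb2 (0.43, others 0.89 to 0.93), Aldoc (1.36, others 0.34 to 0.44) and Jun (-1.24, others -0.56 to -0.45). Library 2 stood apart for Pde8b (-2.24, others -0.76 to -0.59), and library 1 for Epha5 (-1.32, others -0.71 to -0.64). The values of Gabra4 in library 3 and of Htr2c in library 4 come from 0 UMIs in the members of that library. For Ppp1r1b the members of libraries 1, 2 and 3 had 0 UMIs and those of library 4 had 2.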

How the results depend on the processing

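Without the library block, the replicate block of these paired sums, 379 genes were called in place of 960 in the comparison with all other GABAergic neurons, 270 in place of 540 against the Cck and Greb1 class and 73 in place of 260 against the Zic1 and Zic4 class. DESeq2 called 476, 181 and 45. In the first comparison 567 were called with a gate of 1 UMI, 514 with a mitochondrial limit of 5%, 403 without likely doublets, 310 with members paired on depth (3844 tested) and 140 with cells thinned to 1000 UMIs (4200 tested); 476, 282 and 135 of the DESeq2, paired and thinned calls were among the 960. Leaving out 1 library gave 604 to 890, 354 to 528 and 113 to 215 calls, the lowest without library 4, 1 and 4, and 142 without library 1 in the last. The share of calls that were higher in members was 49.4%, but 33.1% without the low-count filter, where the median of all genes moved to -0.31, 38.3% without the block and 32.1% after thinning. Of 2583 recomputed values of 137 genes in the first comparison 405 kept direction and lost the call, 5 gained one, 7 changed direction and the remainder kept both. Those that changed direction were Npy with a gate of 1 UMI (0.26), Oprl1 without likely doublets (0.020), Tac1 with the 5% limit (0.22), Adcy2 after thinning (-0.16), Nkx2-1 with a gate of 1 UMI (0.17) and without likely doublets (0.11), and Egr1 paired on depth (0.048). The Pnoc level difference stayed between -2.82 and -0.60 (-2.04 to -1.19 with 1 library left out). The Pnoc share difference was -1.44 points with a gate of 1 UMI and -7.73 at 2000 UMIs (-5.90 to -4.11 with 1 library left out). The member share was 2.97% with a gate of 3 UMIs, 10.9% with 1 UMI, 6.49% from 2000 UMIs per cell, 3.54% without likely doublets and 4.59% to 5.39% with 1 library left out. Members with and without Lhx8 were not compared under other settings because only library 4 held 10 of each. The cause of each of these changes was not tested.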
